A study of Macaca mulatta with 2 samples.

Results

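The amino acid and neurotransmitter transporters described here are the genes whose symbol belongs to the solute carrier families *SLC1A*, *SLC6A*, *SLC7A* or *SLC38A*. The symbol pattern picked 50 of the 16684 genes in the table, with 7 from *SLC1A*, 19 from *SLC6A*, 13 from *SLC7A* and 11 from *SLC38A*. The samples were 2 bulk RNA-seq libraries, Rep1 and Rep2, of optic nerve from wild-type, untreated rhesus macaques. The deposited design speaks of 2 animals, whereas the paper's methods give 1 adult male for the RNA-seq, and the donated tissue was collected post mortem. Libraries were made from total RNA with a SMARTer v4 Ultra Low Input kit. There was no second condition, so no comparison between groups and no test was possible, and replicate values are given as they stand. With 2 libraries an SD describes only the spread between these samples, which may be technical.

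These carriers move amino acids, GABA, glycine, monoamines, taurine and creatine across cell membranes, mostly driven by the sodium gradient. In white matter, astrocytes clear glutamate and GABA with SLC1 and SLC6 carriers and pass on glutamine through SLC38 carriers, while most SLC7 carriers exchange one amino acid for another as partners of a heavy chain. In the retina the same families take up transmitter at synapses and supply the taurine that photoreceptors depend on.

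The unit was transcripts per 1000000 (TPM), a share of all length-corrected reads of a library, so levels of different genes can be set side by side. Rep1 was the shallower library. The TPM value of 1 read in Rep1 equalled that of 17.2 reads in Rep2. Rep1 listed 38.5% of all genes at 0 against 12.5% in Rep2. The read numbers quoted are the smallest whole numbers that give a gene's ratio between the libraries, hence lower bounds, and cover counting error only. The typical gene was lower in Rep1, by a median log2(TPM + 1) difference of -1.07 (Rep1 minus Rep2) over the 14693 genes above 0 in at least 1 library. Scaling by the median of ratios removed a log2 shift of -1.19. All 8 oligodendrocyte markers and all 8 astrocyte markers were above 1 TPM in both libraries, against 53.9% of all listed genes at 1 TPM or more in both. All 5 fibroblast and all 6 neuronal markers passed as well, so this count does not tell tissues apart. Marker levels differed between the libraries. The oligodendrocyte markers summed to 46003 TPM in Rep1 against 212271 in Rep2, and the astrocyte markers to 1065 and 7260 TPM. The 12 photoreceptor markers summed to 4038 TPM in Rep1 against 11.7 in Rep2, with *GNAT1*, rod transducin, at 2763 and 1.56 TPM, and the 6 neuronal markers to 1924 and 47.4 TPM. Most of the neuronal sum came from *SNAP25* (1122 and 4.99 TPM) and *SYT1* (769 and 11.8 TPM), whereas 3 of the 6 lay within 2-fold, among them *NEFL* at 3.63 and 3.65 TPM. Among the photoreceptor markers the cone arrestin gene *ARR3* was listed at 0 in Rep1, and *SAG*, rod arrestin, was at 1.74 and 1.82 TPM. The part of these differences in the results below was not tested. In bulk tissue, fewer cells of a type and less RNA per cell cannot be told apart.

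Of the 50 transporter genes, 25 were above 0 in both libraries, 17 in Rep2 alone and 8 in neither, and none was found in Rep1 alone. Of all 16684 listed genes, 10168 were above 0 in both, 4434 in Rep2 alone and 1991 in neither. Only 91 were above 0 in Rep1 alone, so the lack of such members is no trait of the set. At 1 TPM or more in both libraries stood 22 of the 50 (44.0%), against a background of 53.9% of all listed genes. The genes listed at 0 throughout were *SLC6A5*, *SLC6A7*, *SLC6A14*, *SLC6A18*, *SLC7A4*, *SLC7A10*, *SLC7A13* and *SLC38A8*. *SLC6A5* encodes the neuronal glycine carrier GlyT2, *SLC6A7* a proline carrier of synapses, and *SLC6A18* a carrier of kidney epithelium. Without read totals a listed 0 gives no upper limit on the level. At the other end, 5 genes reached 100 TPM in at least 1 library, among them *SLC6A6*, *SLC38A2*, *SLC1A3* and *SLC7A8*.

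**Figure D1:**
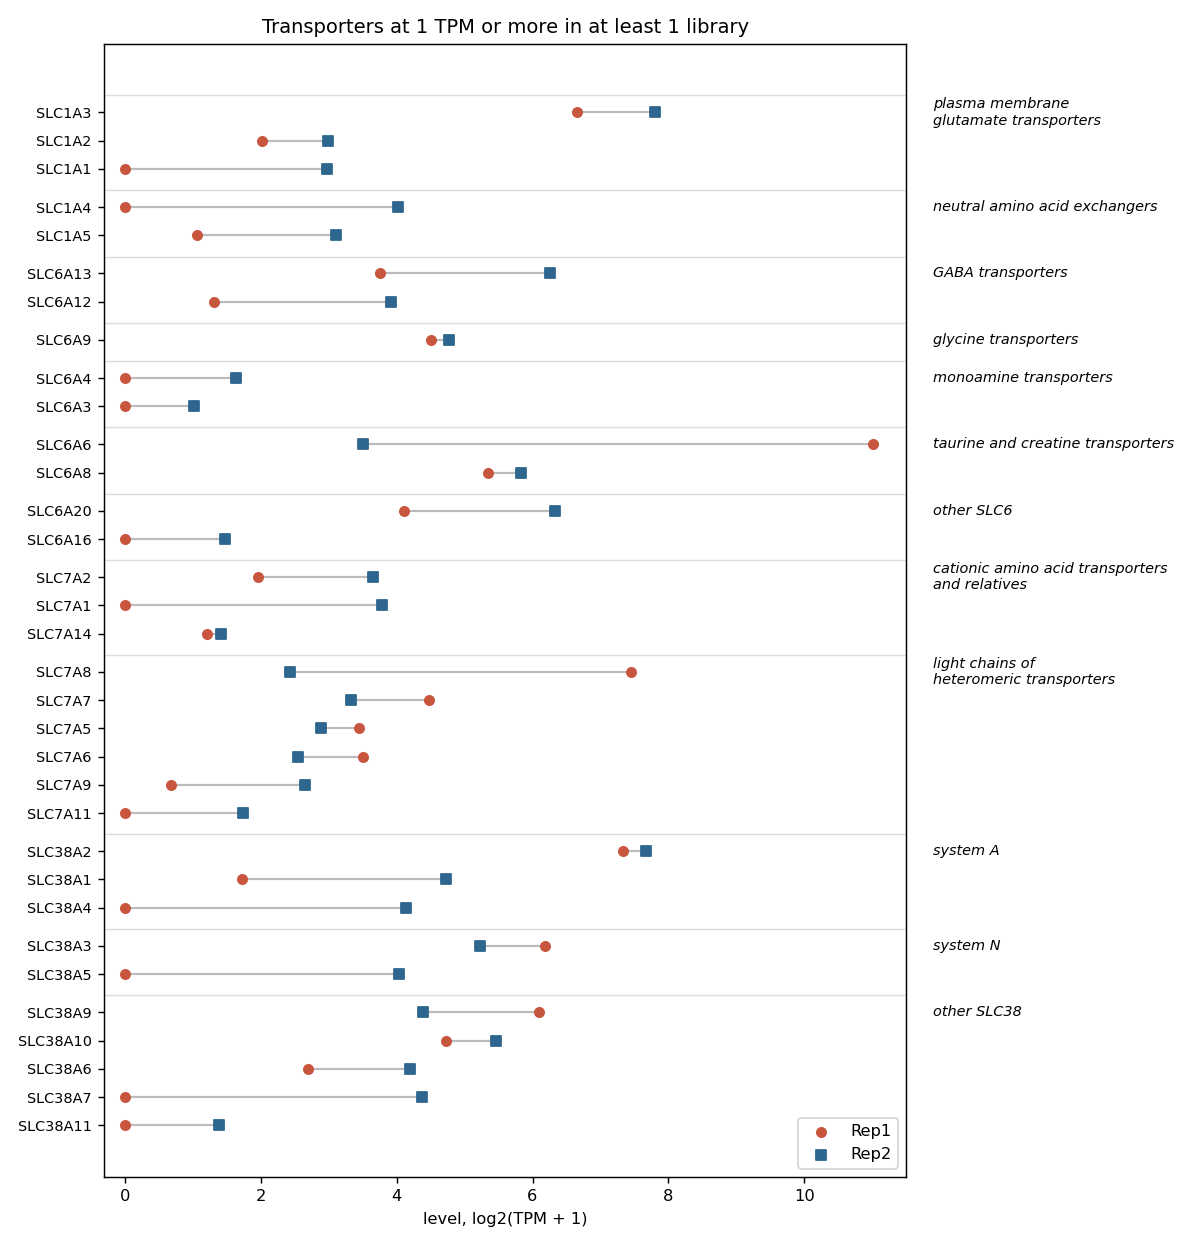
Level of the named transporter genes at 1 TPM or more in at least 1 library, on the log2(TPM + 1) scale, grouped by role; circles are Rep1, squares are Rep2 and a line joins the libraries. *SLC6A6* and *SLC7A8* lie far to the right in Rep1, whereas most genes lie further right in Rep2 and several sit at 0 in Rep1.

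The members are paralogs, and reads common to several genes would blur their levels, so coding stretches of the expressed pairs are shown first. Sequences are from RefSeq transcripts of Mmul_10, in coding direction, with positions counted from the A of the start codon. Capitals mark the longest run of bases that is identical in both coding sequences. For the astrocytic glutamate carriers *SLC1A3* and *SLC1A2*, whose ratio is described below, the longest run was 15 bases, shown at bases 477 to 541 and 471 to 535.
SLC1A3: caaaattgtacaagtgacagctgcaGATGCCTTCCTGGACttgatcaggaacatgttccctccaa
SLC1A2: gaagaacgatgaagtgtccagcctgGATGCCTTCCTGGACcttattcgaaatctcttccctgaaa

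For the glutamine carriers *SLC38A2* and *SLC38A1* the run was 14 bases, shown at bases 465 to 528 of both.
SLC38A2: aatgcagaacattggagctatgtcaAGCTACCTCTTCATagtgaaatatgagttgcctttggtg
SLC38A1: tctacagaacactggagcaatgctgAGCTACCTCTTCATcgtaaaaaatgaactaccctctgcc

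The neighbouring genes *SLC6A13* and *SLC6A12* held the longest run of all 303 pairs within a family, at 52 bases, shown at bases 858 to 959 and 873 to 974.
SLC6A13: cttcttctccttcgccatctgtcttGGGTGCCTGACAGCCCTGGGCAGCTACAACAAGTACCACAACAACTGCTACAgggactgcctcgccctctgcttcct
SLC6A12: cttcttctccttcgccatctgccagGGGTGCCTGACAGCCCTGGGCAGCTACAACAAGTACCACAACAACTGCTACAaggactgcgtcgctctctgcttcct

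In the other 302 pairs the run stayed under 50 bases, with a median of 14 over all pairs. Sharing with genes outside the families mattered more for a few members. In *SLC7A6*, 50.6% of all 50-base words of the transcript also occur in *SLC7A6OS*, which overlaps it by 3227 exonic bases on the opposite strand. The kit keeps no strand information, so reads of *SLC7A6* (10.4 TPM in Rep1 against 4.82 in Rep2) and of *SLC7A6OS* (1.14 and 16.8 TPM) cannot be told apart over that stretch. In *SLC6A17* the share was 38.9%, from an uncharacterized gene on the same strand, and in *SLC1A4* it was 5.18%. Exons of *SLC1A1*, *SLC6A9*, *SLC6A20*, *SLC7A7*, *SLC7A9* and *SLC38A6* overlap another gene by 20 to 254 bases. *SLC6A20* and *SLC6A14* each had a further stretch in the genome of 836 and 1146 bases, at 91.6% and 91.5% identity.

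Glutamate transport into optic nerve cells was represented mainly by *SLC1A3*, which encodes GLAST, the glutamate and aspartate carrier of astrocytes and Müller glia. Its locus is on the plus strand of chromosome 6 (Mmul_10), between 36421009 and 36505464. *SLC1A3* stood at 99.4 TPM in Rep1 against 222 in Rep2, on at least 19 and 729 reads, or 161 ± 86.6 TPM (SD, n = 2), at percentile 93.2 of genes above 0. Rep2 was 2.23-fold higher, about the general shift between the libraries, and after median-of-ratios scaling the log2 difference was 0.03, marginally on the Rep1 side.

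*SLC1A2* encodes GLT-1, the main glutamate carrier of grey matter astrocytes, on chromosome 14 from 30047334 to 30211959. It was at 3.07 TPM in Rep1 against 6.92 in Rep2, on at least 4 and 155 reads. *SLC1A3* was therefore 32.4 times *SLC1A2* in Rep1 and 32.1 times in Rep2, although each gene's own level differed more than 2-fold. On the log2(TPM + 1) scale the ratio was 4.72 ± 0.13 (SD, n = 2). If *SLC1A2* had as few as 4 reads in Rep1, counting error could move the ratio there well beyond this SD. The near match therefore does not show a stable ratio.

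*SLC1A1*, which encodes the neuronal carrier EAAC1, was at 6.89 TPM in Rep2 with a listed 0 in Rep1. *SLC1A7*, the carrier EAAT5 of photoreceptors and bipolar cells, was at 0.424 TPM in Rep1, resting on at least 1 read, and at 0.321 TPM in Rep2. The Purkinje cell carrier gene *SLC1A6* reached 0.0334 TPM in Rep2 and was listed at 0 in Rep1. The photoreceptor carrier gene was thus under 1 TPM in both libraries, including Rep1 with its high *GNAT1*.

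The neutral amino acid exchangers were low. *SLC1A4* (ASCT1, which carries serine and alanine) reached 15.2 TPM in Rep2 with a listed 0 in Rep1. *SLC1A5* (ASCT2, a glutamine exchanger) was at 1.09 TPM in Rep1 against 7.58 in Rep2. Both were lower in Rep1, and the Rep1 value of *SLC1A5* rests on at least 2 reads.

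Of the GABA transporters, *SLC6A11*, the astrocyte carrier GAT-3, was at 0.247 TPM in Rep2 with a listed 0 in Rep1. It was thus near the floor in a tissue whose astrocyte markers were all above 1 TPM.

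*SLC6A13* and *SLC6A12* lie side by side on chromosome 11, from 229358 to 291475 and from 196859 to 223189, both on the minus strand. They encode GAT-2, known in brain from the meninges and vessels, and the betaine and GABA carrier BGT-1. *SLC6A13* was at 12.6 TPM in Rep1 against 75.3 in Rep2, 5.99-fold higher in Rep2. *SLC6A12* was at 1.49 and 14.1 TPM, on at least 1 and 163 reads, 9.49-fold higher in Rep2. *SLC6A20*, which encodes a proline and glycine carrier of epithelia and meninges, was at 16.2 TPM in Rep1 against 79.9 in Rep2, a 4.94-fold difference, on at least 40 and 3393 reads. These 3 genes were all at least 2-fold higher in Rep2, as were 51.3% of all genes above 0. So were all 5 fibroblast markers, which summed to 1518 TPM in Rep1 against 14753 in Rep2. The same held for all 8 oligodendrocyte markers and for 6 of the 8 astrocyte markers. After median-of-ratios scaling it held for 5, 7 and 5 of these markers, against 33.8% of all genes. The part of any of these cell types in the levels of the 3 genes was not tested.

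Glycine uptake was represented by *SLC6A9*, the glial carrier GlyT1, at 21.7 TPM in Rep1 against 26.2 in Rep2 on at least 38 and 789 reads, or 24.0 ± 3.20 TPM (SD, n = 2). Its log2 difference was -0.26 as deposited and 0.88 after median-of-ratios scaling. The monoamine carriers of neurons were near or at the floor. *SLC6A4*, the serotonin transporter, was at 2.10 TPM in Rep2, *SLC6A3*, the dopamine transporter, at 1.03 TPM and *SLC6A2*, the noradrenaline transporter, at 0.0728 TPM, and each was listed at 0 in Rep1.

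The largest difference between the libraries was in *SLC6A6*, which encodes the taurine transporter TauT and lies on chromosome 2 from 145752859 to 145840458 on the plus strand. It was at 2063 TPM in Rep1 against 10.4 in Rep2, on at least 2348 and 203 reads. That is 199-fold higher in Rep1, the 10th largest log2(TPM + 1) difference towards Rep1 of all 14693 genes. In Rep1 it ranked 64th of all genes and alone exceeded the sum of the other 49 transporters, 816 TPM, whereas in Rep2 the others summed to 1357 TPM and *SLC6A6* ranked 7645th. Its mean of 1037 ± 1451 TPM (SD, n = 2) describes neither library. No 50-base word of its transcript was found in another gene, and no other copy in the genome. The photoreceptor marker sum was 345-fold higher in Rep1 too, and its part in the *SLC6A6* level was not tested.

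The creatine transporter gene *SLC6A8*, of the same family and used by oligodendrocytes and neurons, behaved otherwise. It was at 39.8 TPM in Rep1 against 55.8 in Rep2, or 47.8 ± 11.3 TPM (SD, n = 2), within 2-fold. The 4 genes of creatine and taurine synthesis were all at least 2-fold higher in Rep2, as were 51.3% of all genes above 0, and 3 of the 4 were after median-of-ratios scaling (33.8% of all genes). *GATM*, which makes the creatine precursor, was at 10.2 and 100 TPM, *GAMT*, which makes creatine, at 3.78 and 55.5 TPM, *CSAD* at 16.1 and 63.4 TPM and *CDO1* at 9.05 and 91.9 TPM. *CSAD* and *CDO1* encode enzymes of taurine synthesis.

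**Figure D2:**
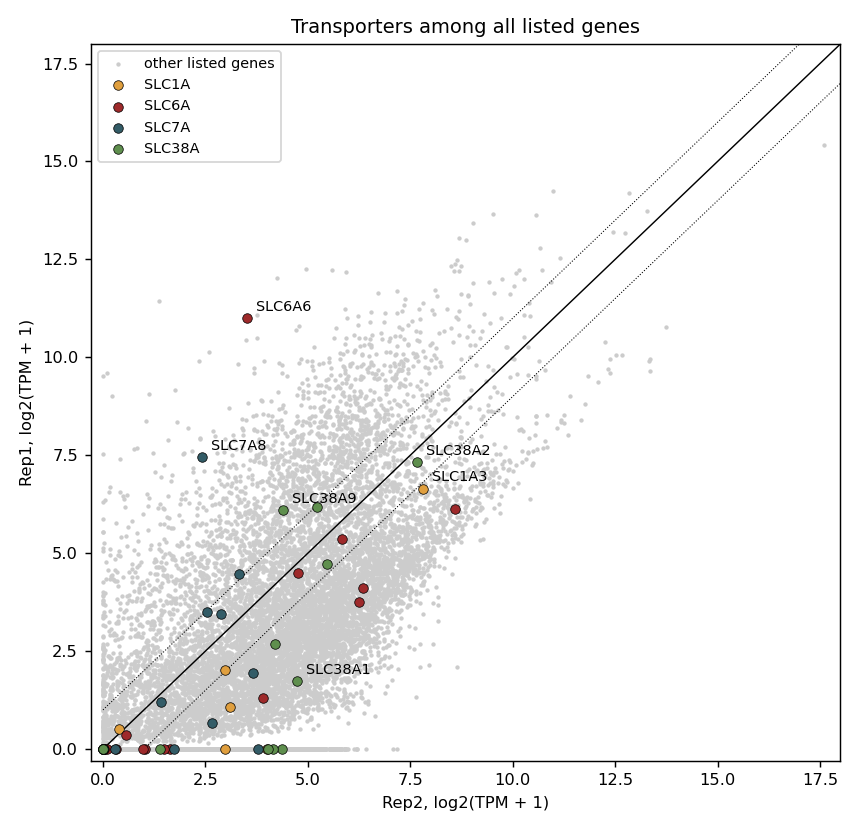
Level of every listed gene in Rep1 against Rep2, both as log2(TPM + 1); grey points are other genes, coloured points the 50 transporters by family, the solid line marks equal levels and the dotted lines a 2-fold difference. *SLC6A6* and *SLC7A8* lie far above the upper dotted line, whereas *SLC38A1* lies below the lower one.

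The remaining *SLC6A* genes were low. *SLC6A16*, an orphan carrier, was at 1.79 TPM in Rep2 with a listed 0 in Rep1. *SLC6A15*, a neuronal carrier of branched-chain amino acids, reached 0.971 TPM in Rep2, and *SLC6A17*, a vesicular carrier of neutral amino acids, 0.283 TPM in Rep1 against 0.478 in Rep2. *SLC6A19*, the intestinal and renal carrier of neutral amino acids, was at 0.0135 TPM in Rep2 with a listed 0 in Rep1.

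The light chains of the heteromeric exchangers pair with a heavy chain to reach the cell surface. Of the 6 above 0, 2 were at least 2-fold higher in Rep1 and 2 in Rep2 as deposited, against 14.8% and 51.3% of all genes above 0, and 4 and 2 after scaling, against 23.7% and 33.8%. *SLC7A8*, which encodes the neutral amino acid exchanger LAT2, lies on chromosome 7 from 85162341 to 85222355. It was at 173 TPM in Rep1 against 4.37 in Rep2, on at least 263 and 114 reads, 39.6-fold higher in Rep1. *SLC7A7*, the exchanger y+LAT1 of epithelia and macrophages, was at 21.3 and 9.0 TPM, on at least 4 and 29 reads. Of the 6 microglia markers, 4 were at least 2-fold higher in Rep2, against 51.3% of all genes above 0. The other 2 lay within 2-fold, *AIF1* at 113 and 64.5 TPM and *CSF1R* at 61.3 and 62.2 TPM. After scaling 3 of the 6 were higher in Rep2 and 2 in Rep1, against 33.8% and 23.7% of all genes. The part of microglia in the *SLC7A7* level was not tested.

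*SLC7A5* encodes LAT1, which carries large neutral amino acids across the blood-brain barrier. It was at 9.92 TPM in Rep1 against 6.42 in Rep2, or 8.17 ± 2.47 TPM (SD, n = 2). In Rep1 *SLC7A8* was 17.5 times *SLC7A5*, whereas in Rep2 *SLC7A5* was 1.47 times *SLC7A8*, so the order of these light chains did not hold. *SLC3A2*, the heavy chain 4F2hc that both need at the cell surface, was at 54.6 and 297 TPM. It exceeded *SLC7A5* by 5.51 times in Rep1 and 46.2 times in Rep2, and this order held in both.

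*SLC7A11*, the cystine and glutamate exchanger xCT that feeds glutathione synthesis, was at 2.32 TPM in Rep2 with a listed 0 in Rep1. Of the glutathione genes, *GCLC* (7.30 and 26.3 TPM) and *GSS* (4.44 and 20.7 TPM) were at least 2-fold higher in Rep2 and *GCLM* (163 and 52.7 TPM) in Rep1. After scaling *GCLM* alone stayed past 2-fold. *SLC7A9*, the renal cystine carrier, was at 0.595 TPM in Rep1 against 5.30 in Rep2, and the other heavy chain gene, *SLC3A1*, at 0.0374 TPM in Rep2 alone.

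Cationic amino acid carriers were present at low levels. *SLC7A1*, the arginine and lysine carrier CAT-1, was at 12.8 TPM in Rep2 with a listed 0 in Rep1. *SLC7A2*, the carrier CAT-2, was at 2.87 TPM in Rep1 against 11.6 in Rep2, on at least 11 and 763 reads. *SLC7A14*, a lysosomal relative, was at 1.31 and 1.67 TPM, and *SLC7A3*, the neuronal CAT-3, at 0.231 TPM in Rep2 with a listed 0 in Rep1.

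*SLC38A2* differed little between the libraries as deposited, with a log2 difference of -0.34, which became 0.84 after median-of-ratios scaling. It encodes the system A carrier SNAT2, which takes up small neutral amino acids with sodium, on chromosome 11 from 45883732 to 45897173. Its level was 159 TPM in Rep1 against 203 in Rep2, on at least 97 and 2118 reads, or 181 ± 30.5 TPM (SD, n = 2), at percentile 94.0. *SLC38A1* (SNAT1, a neuronal glutamine carrier) lies next to it from 45722387 to 45804493 and was at 2.32 TPM in Rep1, on at least 1 read, and 25.5 TPM in Rep2. *SLC38A2* exceeded it 68.8-fold in Rep1 and 7.94-fold in Rep2, so the order held while the size did not. *SLC38A4*, the third system A gene and also on chromosome 11, was at 16.6 TPM in Rep2 with a listed 0 in Rep1.

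The system N carriers release glutamine from astrocytes. *SLC38A3* (SN1) was at 71.4 TPM in Rep1 against 36.5 in Rep2, on at least 44 and 387 reads, or 53.9 ± 24.6 TPM (SD, n = 2). It was 1.95-fold higher in Rep1, against the general direction. Of the 8 astrocyte markers, 6 were at least 2-fold higher in Rep2, against 51.3% of all genes above 0. Their sum was 6.82-fold higher there, with *GFAP* at 658 and 4331 TPM. *FGFR3* lay within 2-fold on the log2(TPM + 1) scale, and *SOX9* was higher in Rep1, at 50.2 and 20.4 TPM. The part of astrocytes in the *SLC38A3* level was not tested. *SLC38A5* (SN2) was at 15.4 TPM in Rep2 with a listed 0 in Rep1, so *SLC38A3* was the higher of the pair in both libraries. *GLUL*, the glutamine synthetase of astrocytes and oligodendrocytes, was at 364 and 1506 TPM. *GLUD1*, glutamate dehydrogenase, was at 446 and 86.8 TPM, so these enzymes differed in opposite directions. Of the 10 genes of glutamate and GABA metabolism, 4 were at least 2-fold higher in Rep1 and 4 in Rep2, against 14.8% and 51.3% of all genes above 0. After scaling 4 were higher in Rep1 and 1 in Rep2, against 23.7% and 33.8%. Those higher in Rep1 included *GAD1*, which makes GABA in neurons, at 189 and 1.35 TPM.

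Among the other *SLC38A* genes, *SLC38A9* was the only one at least 2-fold higher in Rep1. It encodes a lysosomal carrier that reports arginine to the mTORC1 kinase, and was at 67.5 TPM in Rep1 against 19.9 in Rep2, on at least 50 and 253 reads, a 3.40-fold difference. Of its partners in lysosomal sensing, *RRAGA* (216 and 106 TPM) and *RRAGC* (369 and 12.2 TPM) were also higher in Rep1, whereas all 5 *LAMTOR* genes were at least 2-fold higher in Rep2, against 51.3% of all genes above 0, and 3 of the 5 after scaling, against 33.8%. *SLC38A10* was at 25.4 TPM in Rep1 against 43.2 in Rep2, within 2-fold. *SLC38A6* was at 5.47 and 17.4 TPM, *SLC38A7*, a lysosomal glutamine carrier, at 19.7 TPM in Rep2 with a listed 0 in Rep1, and *SLC38A11* at 1.61 TPM in Rep2 with a listed 0 in Rep1.

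The levels were also summed by role. All 50 genes summed to 2879 TPM in Rep1 against 1368 in Rep2. With *SLC6A6* left out, the sums were 816 and 1357 TPM. Plasma membrane glutamate transporters took 12.6% of this in Rep1 and 17.4% in Rep2, and the system A carriers 19.8% and 18%. The light chains took 26.4% and 2.37%, most of it from *SLC7A8* in Rep1. Thus the shares of glutamate and system A carriers were closer between the libraries than that of the light chains. *SLC7A8* raised the Rep1 total from 642 to 816 TPM, which lowers the other shares there. In system A, *SLC38A2* gave 159 of 162 TPM in Rep1 and 203 of 245 TPM in Rep2.

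**Figure D3:**
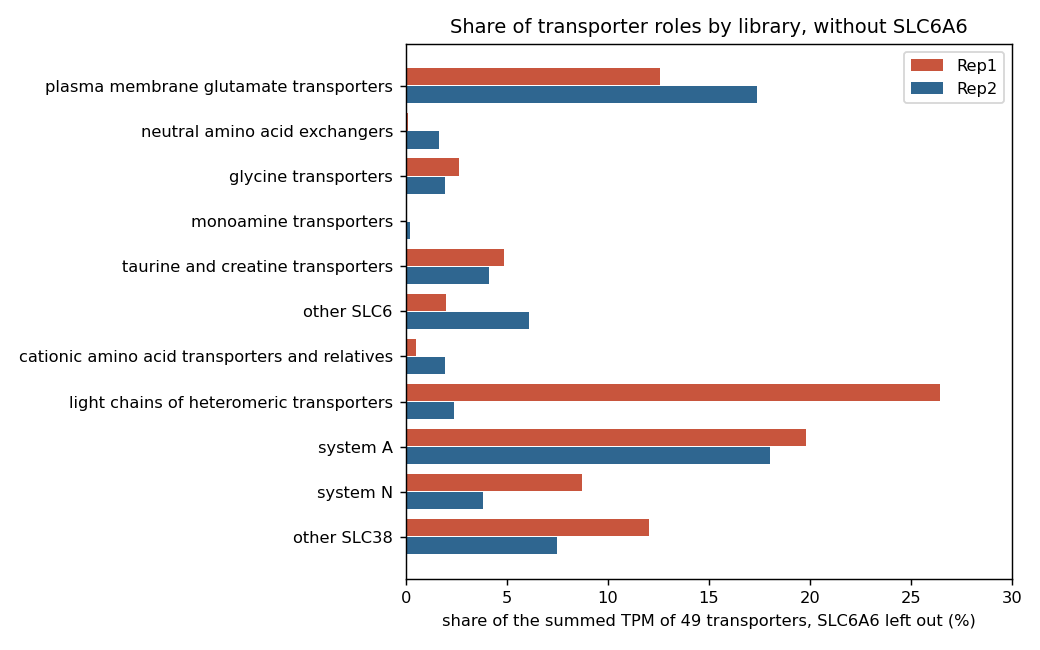
Share of 11 transporter roles in the summed TPM of 49 transporters, *SLC6A6* left out, in percent; red bars are Rep1 and blue bars Rep2. Light chains are the longest bar in Rep1 (26.4%) and short in Rep2 (2.37%), whereas system A differs little (19.8% and 18%).

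**Figure D4:**
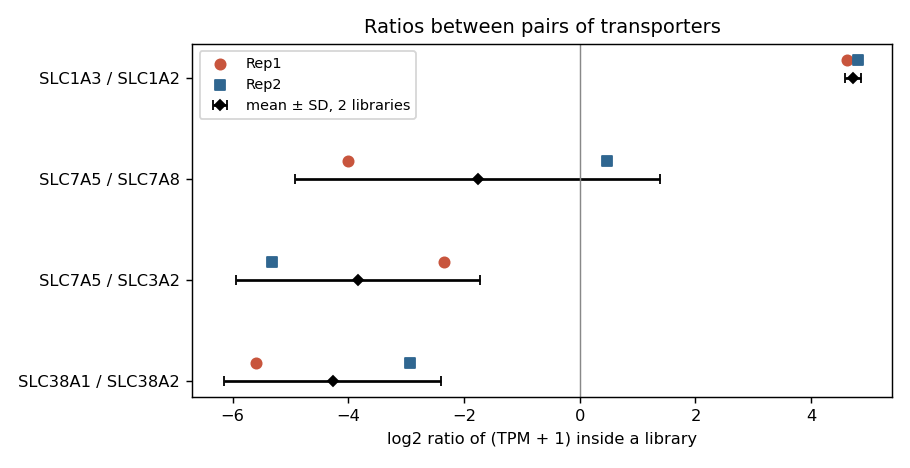
Ratio between pairs of genes inside each library, as log2 of (TPM + 1); circles are Rep1, squares Rep2, and diamonds with bars the mean and SD of the 2 libraries. The *SLC1A3* to *SLC1A2* ratio nearly coincides, whereas *SLC7A5* to *SLC7A8* lies on either side of 0.

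The libraries shared little of the order of the abundant members. Of the 15 transporters with a mean of 10 TPM or more, 55 of 105 pairs (52.4%) stood in the same order in both libraries. The 15 were picked by the mean of both libraries, which admits genes high in 1 library only, such as *SLC6A6* and *SLC7A8*. Ranked by mean log2(TPM + 1), the leading named genes were *SLC38A2*, *SLC6A6*, *SLC1A3*, *SLC38A3*, *SLC6A8*, *SLC38A9*, *SLC6A20*, *SLC38A10* and *SLC6A13*, in this order. Of all 49 pairs of neighbours in the full order, only *SLC1A3* and *SLC38A3* were separated, meaning the same order in both libraries and a mean difference above its SD. The other neighbours did not differ beyond their spread.

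Over genes above 0 in at least 1 library, the transporters as a set followed the general difference between the libraries. At least 2-fold higher in Rep2 on the log2(TPM + 1) scale were 21 of the 42 genes above 0 (50%), against 51.3% of all genes above 0. At least 2-fold higher in Rep1 were 4 (9.52%), namely *SLC6A6*, *SLC7A8*, *SLC38A9* and *SLC7A7*, against 14.8%. After median-of-ratios scaling the counts were 17 (40.5%) in Rep2 and 7 (16.7%) in Rep1, against 33.8% and 23.7%. The scaling added *SLC38A3*, *SLC7A5* and *SLC7A6* to the genes higher in Rep1, and turned the sign of 8 genes, *SLC1A3*, *SLC1A2*, *SLC38A2*, *SLC38A10*, *SLC6A8*, *SLC6A9*, *SLC6A17* and *SLC7A14*, from lower to higher in Rep1. The median log2 difference was -1.0 over the members and -1.07 over all genes. Over genes above 0 in both libraries it was -0.48 and -0.98, so there the members differed less than genes in general.

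**Figure D5:**
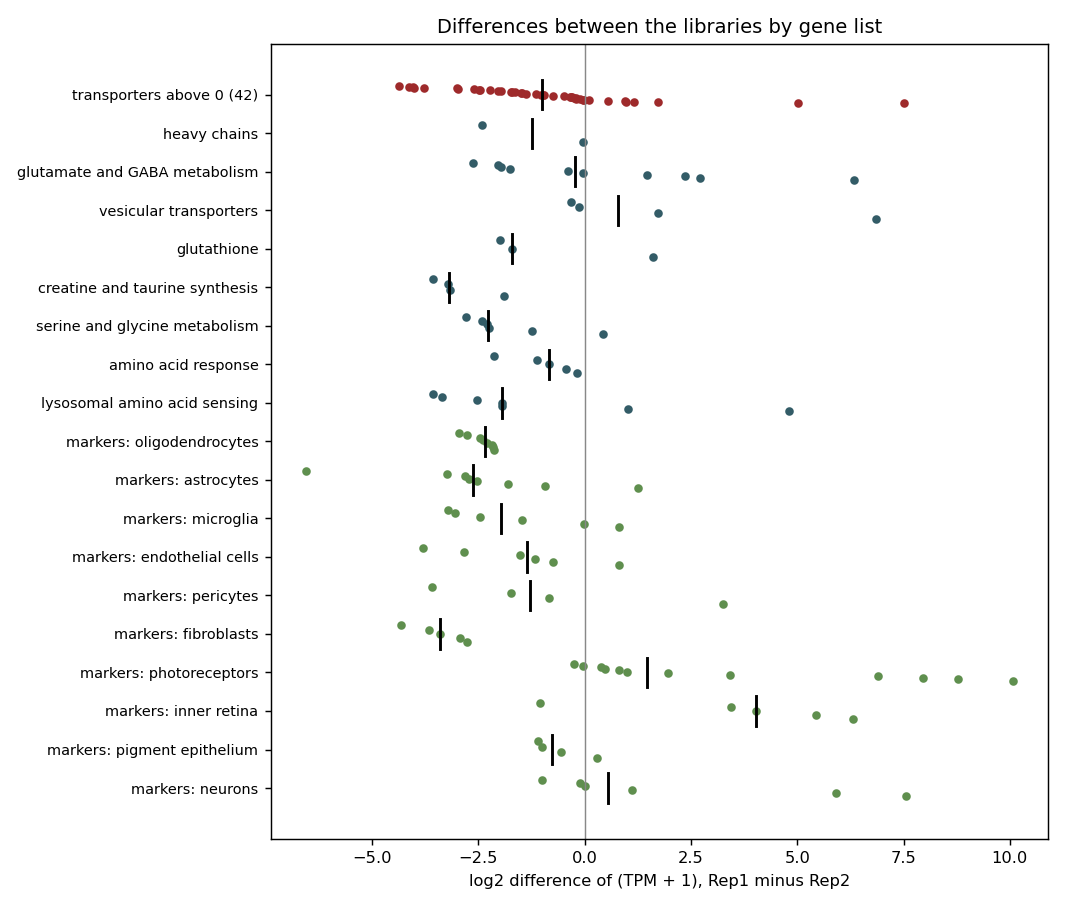
Difference between the libraries, log2 of (TPM + 1), Rep1 minus Rep2, for each gene above 0; 1 row per gene list, with transporters in red, pathway genes in blue and cell type markers in green, and a black bar at the median. The transporters spread to both sides of 0 (median -1.0), fibroblast and oligodendrocyte markers lie below 0 and inner retina markers mostly above.

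How often a gene was listed at 0 in Rep1 followed its level in Rep2, among the members as among all genes. Of the 42 above 0 in Rep2, 17 (40.5%) were listed at 0 in Rep1, against 30.4% of all genes above 0 in Rep2. Of the 42, 8 were under 1 TPM in Rep2, and 6 of these 8 were listed at 0 in Rep1, against 77.5% of all genes in that band. From 1 to 5 TPM it was 5 of 8 members, against 50.8%. In the band from 5 to 20 TPM in Rep2, 6 of 16 members (37.5%) were listed at 0 in Rep1, against 23.6% of all genes in that band. They were *SLC38A4*, *SLC1A4*, *SLC1A1*, *SLC7A1*, *SLC38A7* and *SLC38A5*. At 20 TPM or more none of 10 members was listed at 0 in Rep1, against 4.51% of all genes there.

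*KCNJ10*, the glial potassium channel Kir4.1, was at 2.35 and 22 TPM. The vesicular carriers, which load transmitter inside neurons, were listed at 0 or under 1 TPM in Rep2, where the highest, *SLC17A7*, was at 0.771 TPM. In Rep1 *SLC17A7*, the vesicular glutamate carrier of many excitatory neurons and of photoreceptors, was at 204 TPM on at least 77 reads, and the vesicular GABA and glycine carrier *SLC32A1* at 2.30 TPM. The other 5 vesicular carriers were listed at 0 there.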

How the data were processed

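Bulk RNA-seq of 2 optic nerve samples of 1 condition was analysed. Per the paper's methods and, for versions, the submitters' processing notes, the authors checked reads with FastQC 0.11.9, trimmed them with Trim Galore 0.6.6, aligned them to Mmul_10 with STAR 2.7.1a and counted them per gene with featureCounts 1.5.3. The deposited values are TPM computed by the authors. Gene lengths, strand setting and treatment of multi-mapping reads were not given in the sources used here. The columns Rep1 and Rep2 could not be matched to single sample titles and served as replicates. Read totals are unknown, and TPM allows no interval or detection limit per gene.

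Differences were taken as log2(TPM + 1), which understates the change of low genes, and a gene was counted as higher in a library from 2-fold on. Computations used Python 3.11.15, numpy 2.4.6, pandas 2.3.3, scipy 1.17.1 and matplotlib 3.10.9, and minimap2 2.31 for copies of at least 500 bases and 90% identity in the genome. Read numbers used a tolerance of 1e-11. The code was tested on simulated data. RefSeq's Mmul_10 annotation held all 50 members, of which 48 gave a usable coding sequence. Every member but 1 is named, with both values from 1 TPM in at least 1 library, and a few genes are not reported here. The members and lists were chosen with earlier results of these data known. Alternatives were other pseudocounts, minimum levels and filters, median-of-ratios scaling, removal of the 10 genes with the highest levels, geometric means and single libraries.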

Additional observations from a re-analysis of the deposited data

How the results depend on the processing

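No paired analysis was possible because there was only 1 condition. With a minimum of 5 TPM, 14 members passed in both libraries instead of 22, and with 1 library asked alone the count ran from 22 to 34. Members at least 2-fold higher in Rep2 were 10 instead of 21 when only genes above 0 in both libraries were kept, since 11 of the 21 were listed at 0 in Rep1. Median-of-ratios scaling gave 7 members higher in Rep1 instead of 4. The median log2 difference of -1.0 became -1.76 with a pseudocount of 0.1, -0.44 with a pseudocount of 5, -0.33 after median-of-ratios scaling, -1.63 with a mean of at least 1 TPM and -0.48 over genes above 0 in both libraries, and kept its sign in each. Over all genes above 0 in both libraries the median was -0.98. The *SLC1A3* to *SLC1A2* log2 ratio was 4.98 with a pseudocount of 0.1 and 3.97 with 5, beyond its SD, since a pseudocount by construction weighs most on the low *SLC1A2*. Taking each library alone it ran from 4.62 to 4.81, that of *SLC38A1* to *SLC38A2* from -5.60 to -2.94, that of *SLC7A5* to *SLC3A2* from -5.33 to -2.35 and that of *SLC7A5* to *SLC7A8* from -4.00 to 0.47. Pairs with a gene listed at 0 were left out of these alternatives. Of the mean TPM values of single members, 98 under other scalings and averages stayed within their SD and 4 moved beyond it, those of *SLC6A9*, *SLC7A14*, *SLC38A2* and *SLC6A8* without the 10 most abundant genes. A single library and a geometric mean always lie within 1 SD of a mean of 2, so these alternatives say nothing about stability. The 98 values include the geometric means. For members listed at 0 in Rep1 the SD exceeds the mean, so only a large change could pass it. For 13 members the lower bound on reads in Rep1 was under 10, which leaves their true number of reads open.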

Other observations

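Genes that make the cargo of the glycine and serine carriers were also measured. *PHGDH*, the entry enzyme of serine synthesis, was at 27.7 TPM in Rep1 against 67.1 in Rep2, *PSAT1* at 17 and 95.1 TPM and *PSPH* at 12 and 60.8 TPM. *GLDC*, which breaks down glycine, was at 3.89 and 22.9 TPM. Of the 6 genes of serine and glycine metabolism, 5 were at least 2-fold higher in Rep2, against 51.3% of all genes above 0, and only *SHMT2*, at 21.9 and 16.0 TPM, stayed within 2-fold. After median-of-ratios scaling 4 were higher in Rep2 and 1 in Rep1, against 33.8% and 23.7% of all genes.

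Among genes that respond to a lack of amino acids, the transcription factor gene *ATF4* was at 55.3 TPM in Rep1 against 75.3 in Rep2. The target genes *ASNS* (3.37 TPM), *TRIB3* (1.19 TPM) and *CHAC1* (0.143 TPM) were seen in Rep2 alone, and *SESN2* was at 1.72 and 3.89 TPM. A listed 0 in Rep1 was common at such levels. It held for 50.8% of all genes at 1 to 5 TPM in Rep2 and for 77.5% of those under 1 TPM.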
